A study of Drosophila melanogaster with 11 samples.

Results

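Larval fat body was compared with adult fat body in wild-type animals that received no RU486, with 1 library for each stage. The members are the 6675 of 15603 genes listed at 10 FPKM or more in the larval or the adult library, where FPKM is the deposited unit, fragments scaled to transcript length and library size. Both groups had the genotype DaGeneSwitch x UAS-dOTC: the ubiquitous daughterless GeneSwitch driver, which acts only when the steroid RU486 is given, and a transgene for dOTC, a misfolding form of the mitochondrial enzyme ornithine transcarbamylase. The larval group was L3 larvae and the adult group was flies aged 7 days, and both were listed with no treatment, so that the transgene was carried but not switched on by RU486 in either. Each sample pooled tissue of 15 animals. There were 3 further matched pairs of larval and adult fat body: wild type with RU486, and PGAM5 null without and with RU486. They are used here only as other libraries to set beside the first. The pairs with RU486 were not treated alike at both stages. By the study's account the larvae were expressing dOTC when sampled, whereas the adults had expressed it as larvae. The study states that its later experiments, after the first infection assays, were done with female flies, and it gives no sex for the larvae.

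The fat body is the insect counterpart of liver and adipose tissue. It stores fat and glycogen, releases the sugar trehalose and lipoproteins into the blood, makes antimicrobial peptides, and senses the steroid hormone ecdysone and insulin-like peptides. The larval organ also fills the blood with storage proteins that are used during metamorphosis, whereas the adult female organ secretes yolk proteins for the eggs. The larval cells are lost in the young adult, and the adult fat body is formed by other cells.

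Each library was rescaled so that its values sum to 1000000, and these values are called rescaled FPKM. The log2 difference is log2(larval + 1) minus log2(adult + 1) in these units. A member counts as higher in one stage where the difference is at least 3-fold on this scale, and as close where it is under 1.5-fold. No test was possible with 1 library a stage and with tables that were made separately, so levels, ranks and differences are a description of these libraries, and no p-value is given. Differences between stages in a dissected organ can come from fewer cells of a type or from less RNA per cell, which cannot be told apart here.

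The larval library rested on about 6170000 fragments and the adult library on about 6550000, estimates that come from how finely low FPKM values are stepped. The 10 most abundant genes held 42.4% of the summed FPKM in the larval library and 17.5% in the adult library, and 50% of the sum was held by 24 genes in larvae and by 112 genes in adults. The adult library stands apart from the other adult libraries. A total of 304 members were at least 3-fold above all 3 of them, against 8 to 25 members for each of the other adult libraries and 20 to 41 for each larval library. Midgut digestion genes held 1.08% of its sum, against 0.0109% to 0.0830% in the other adult libraries. Of the 1419 members called higher in adults, 225 were among the 304. With the adult level taken from the median of the other 3 adult libraries, 969 genes were higher in adults and 1489 higher in larvae.

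In the main comparison 1365 of the 6675 members were at least 3-fold higher in larvae (20.4%) and 1419 were at least 3-fold higher in adults (21.3%). Another 1752 members were close (26.2%). The shares of 20.4% and 21.3% are the background for the counts of each gene list below. The choice of members enters these counts, since 1258 of the genes called higher in larvae reached 10 FPKM in the larval library only, and 898 of those called higher in adults reached it in the adult library only. Among the 3565 genes at 10 FPKM or more in both libraries, 107 were higher in larvae (3.0%) and 521 higher in adults (14.6%). Of the larger differences, 1102 members were at least 10-fold higher in larvae and 493 at least 10-fold higher in adults.

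The scaling of the libraries bears on all of these counts, since a few secreted proteins held much of the larval sum. The median log2 difference was -0.46 over the members and -0.25 over the 11349 genes at 1 FPKM or more in either library. Scaling to the median ratio of genes expressed in both stages raised larval levels by 0.54 relative to adult levels on the log2 scale, and then 1537 members were higher in larvae and 978 in adults, so that 61.1% of calls were larval instead of 49.0%. Medians of gene lists in this pair are therefore given on both scales. By rank, the stages shared 0 of their 10 most abundant genes, 49 of the top 100 and 275 of the top 500. Spearman's rho between the rescaled values was 0.69 across the genes at 10 FPKM or more in both, which describes genes and not replicates.

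**Figure D1:**
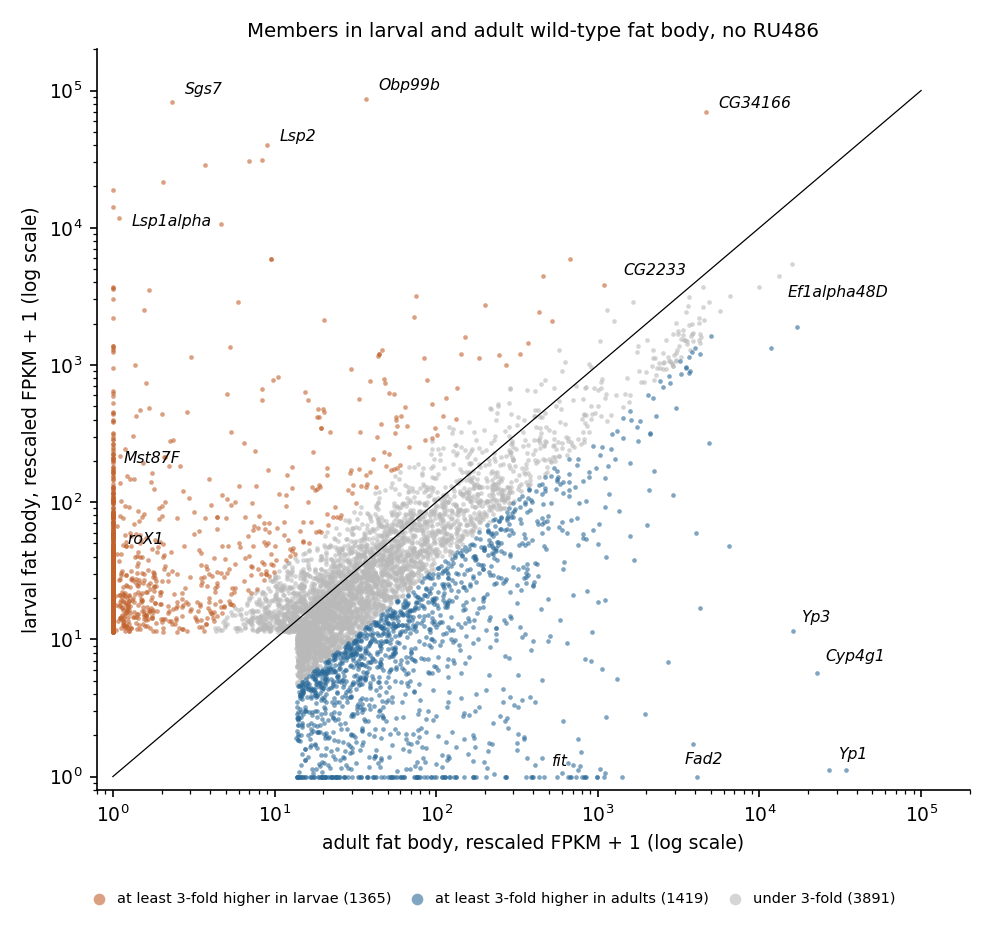
Rescaled FPKM plus 1 of the 6675 members in the adult library (horizontal, log scale) and the larval library (vertical, log scale), coloured by call, with the line of equal levels. The storage and glue genes lie at the upper left, the yolk genes and Cyp4g1 at the lower right, and CG2233 near the line.

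In the other 3 pairs, which share no library with this one, 63.1% of the larval calls and 39.3% of the adult calls held throughout. A total of 861 members (12.9%) were at least 3-fold higher in larvae in all 4 pairs and 557 (8.34%) at least 3-fold higher in adults in all 4 pairs. The 4 larval values lay wholly above the 4 adult values for 1551 members (23.2%) and wholly below them for 2633 members (39.4%). In at least 1 other pair, 11 of the members called higher in larvae and 117 of those called higher in adults went at least 3-fold the other way. Members listed at 0 in 1 library numbered 804 in adults and 128 in larvae, and for these a level is given and no fold.

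Larval serum proteins were far higher in larvae, as were Fbp1 and Fbp2, which are on the same list. All 6 genes of the list were higher in larvae, 5 of them in all 4 pairs. Together they held 15.3% of the larval sum and 0.00277% of the adult sum. Lsp2, a hexameric storage protein, had 40071 rescaled FPKM in larvae against 8.02 in adults. Lsp1alpha, Lsp1beta and Lsp1gamma, the subunits of the other storage hexamer, had 11844, 31029 and 30678 in larvae, against 0.0852, 7.34 and 5.92 in adults. For Lsp1gamma, which has 1 annotated transcript, the larval to adult ratio was 5183 with a 95% interval of 4123 to 6659 that covers counting error only.

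Fbp1, the receptor by which fat body cells take the storage proteins back up, had 28730.0 in larvae against 2.71 in adults, and Fbp2 had 10593 against 3.67. In the other larval libraries Lsp2 ran from 38578 to 56331 and Fbp1 from 12909 to 28716, while Lsp1alpha varied more, from 438 to 26202. Lsp1beta was listed at 0 in the larval library of wild type with RU486, where Lsp1gamma was at 58658, and a listed 0 can be a failed estimate. It was at 22204 and 59578 in the PGAM5 null larvae.

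The most abundant larval gene was Obp99b, an odorant-binding protein family member, at 87233 rescaled FPKM in larvae against 36.0 in adults, or 8.72% and 0.00360% of the sum. The other larval libraries gave 68931 to 101120.4 and the other adult libraries 16.9 to 187, so that the stages did not overlap. CG34166, a gene with no established role, had rank 3 in larvae, behind the glue gene Sgs7, with 69388, and rank 16 in adults with 4683. Of the 11 members of the family 2 were higher in larvae and 4 in adults, beside 20.4% and 21.3% of all members. Obp44a was the other larval one, with 182 against 1.24. On the adult side Obp18a had 0.302 in larvae and 168 in adults, and Obp57a was listed at 0 in larvae and at 128 in adults. Obp99c was high at both stages, with 2034 in larvae and 3052 in adults.

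Yolk proteins were far higher in adults. Yp1 and Yp2 had ranks 1 and 2 in adults at 34556 and 26954 rescaled FPKM, and stood at 0.120 and 0.121 in larvae. Yp3 had 10.6 in larvae and 16077 in adults, a ratio of 0.000656. Together the yolk genes held 0.00108% of the larval sum and 7.76% of the adult sum, and in the other adult libraries 7.67% to 13%. The female-biased secreted protein fit followed the same division, listed at 0 in larvae and at 460.5 in adults.

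**Figure D2:**
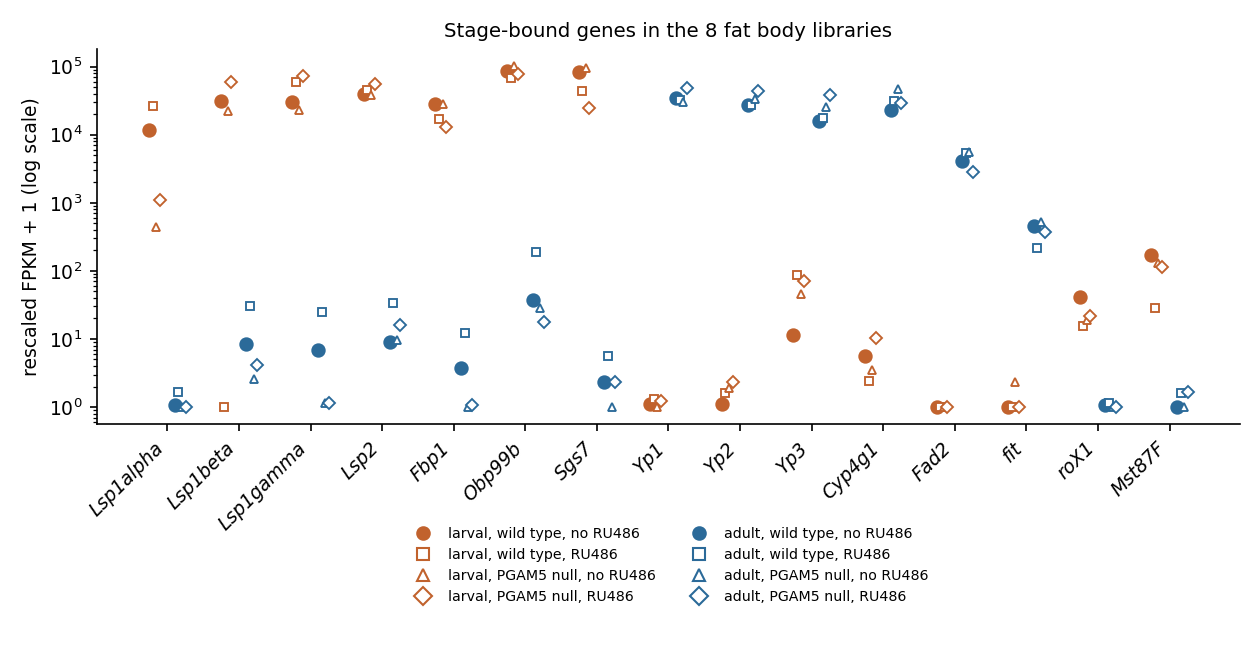
Rescaled FPKM plus 1 (log scale) of 15 genes in the 4 larval (left) and 4 adult (right) fat body libraries, with filled circles for wild type without RU486. Larval and adult points lie far apart for each gene, except for Lsp1beta in larvae of wild type with RU486, which is listed at 0.

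Carriers of lipid and metal were less divided. The lipophorin precursor Rfabg (apolpp), the main lipid carrier of the blood, had 655 in larvae and 999 in adults, a log2 difference of -0.61 that turned positive in the 2 RU486 pairs at 0.39 and 0.31. CG15828, named Apoltp in the reference, encodes the lipid transfer particle that loads lipophorin. It had 11.9 in larvae and 136 in adults, with a ratio of 0.0872 (interval 0.0814 to 0.0932). Among the sterol-binding Npc2 genes, Npc2a was higher in larvae (252 against 66.9) and Npc2h and Npc2b were lower in larvae (62.0 against 596, and 10.6 against 73.6). Of the 12 lipid carrier members, 1 was higher in larvae and 6 higher in adults, beside 20.4% and 21.3% of all members.

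Both ferritin subunits were lower in larvae: Fer1HCH had 353 in larvae and 1752 in adults, and Fer2LCH 279 and 1766, with log2 differences of -2.31 and -2.66. Metallothioneins, small copper- and zinc-binding proteins, went both ways. MtnA, of rank 8 in adults, had 1320.3 in larvae and 11775 in adults. MtnD had 69.9 and 7.6, and MtnE 63.0 and 3.40, which put them higher in larvae. In the PGAM5 null pairs MtnD differed by -0.01 and -1.53 and MtnE by 0.10 and -1.28, so that their direction did not hold across the 4 pairs.

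Genes that define fat body were examined to check the label. The GATA factor srp, needed to form the organ, was at 38.5 in larvae and 43.2 in adults, and the lipid droplet protein Lsd-1 at 1011 and 877. Lsd-1 was among the 8 most abundant of the close genes. The others were Adh (3151 in larvae and 3671 in adults), CG2233 (3681 and 4450.4), Gapdh1 (968 and 906), Ubi-p5E (702 and 736), FK506-bp2 (689.9 and 850.0), Thor (684 and 831) and CG12262, the fatty acid oxidation enzyme Mcad (541 and 577). For CG2233 and CG12262 the ratios were 0.827 (0.814 to 0.841) and 0.938 (0.897 to 0.980). Of the 12 genes in the fat body list srp and Lsd-1 were the only 2 that were close. By sign 11 were lower in larvae. For 9 the 4 larval values lay wholly below the 4 adult values, beside 39.4% of all members. At 3-fold 7 were higher in adults and 0 in larvae. Of these 7, 4 were enzymes of lipid synthesis that are described next. The remaining ones were Hnf4 (12.9 in larvae and 82.3 in adults), GRHR, named AkhR in the reference (58.7 and 222), and Fatp (12.9 and 260.2).

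Lipid synthesis genes were lower in larvae. Of 17 lipogenesis members 13 were higher in adults and 0 in larvae, all 17 lay below the adult level, and the list's median log2 difference was -2.41, or -1.86 under median-ratio scaling. ACC, which makes malonyl-CoA, had 8.66 rescaled FPKM in larvae against 493 in adults. The fatty acid synthase CG3523, FASN1 in the reference, had 85.1 against 1347, and its paralog v(2)k05816, FASN2 in the reference, had 0.224 against 409. Whether cells other than fat body, such as the oenocytes described below, add to the adult level of this paralog was not tested. The desaturase desat1 had 270.3 against 4889.9, and Acsl, which activates fatty acids, 31.3 against 612.

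Enzymes that feed carbon and reducing power into the pathway lay on the same side. ATPCL, the ATP citrate lyase, had 47.6 in larvae and 352 in adults. AcCoAS had 127 and 724, the malic enzyme Men 166 and 885, and Gpdh, which supplies the glycerol backbone, 113 and 1171. The transcription factor of the pathway, SREBP (listed as HLH106), had 39.4 and 143. At the end of the pathway the diacylglycerol acyltransferase mdy differed less, with 39.1 and 87.2 and a log2 difference of -1.14.

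The list differed less in the RU486 pairs, a contrast that was not tested. The lipogenesis median was -3.02 in PGAM5 null without RU486, -1.0 in wild type with RU486 and -1.09 in PGAM5 null with RU486. On the larval side ACC was at 135 and 79.2 in the larval libraries with RU486 and at 4.02 in PGAM5 null larvae without it, while the adult values ran from 449 to 538. Larval values lay wholly below adult values over the 8 libraries for 15 of the 17 members, beside 39.4% of all members.

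Fat release and oxidation genes were closer between the stages. Of 18 members 6 were higher in adults and 0 in larvae, beside 21.3% and 20.4% of all members. The list's median was -1.29, or -0.76 under median-ratio scaling. The lipase bmm had 42.8 in larvae and 97.0 in adults, and the droplet protein Lsd-2 275 and 683. The carnitine carrier colt had 41.1 and 225, whd, the carnitine palmitoyltransferase of the mitochondrial outer membrane, 83.3 and 273, and Hmgs, an early enzyme of the mevalonate pathway, 19.1 and 195.

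Glycogen and trehalose genes were lower in larvae throughout. All 10 members were higher in adults, with a median of -2.91 (-2.36 under median-ratio scaling). In all 10 the 4 larval values lay below the 4 adult values, beside 39.4% of all members. Tps1, which makes the blood sugar trehalose, had 111 in larvae and 2904 in adults, a ratio of 0.0382 (0.0365 to 0.0401). UGP, which makes UDP-glucose, had 53.0 and 849.7, and Pgm, which interconverts glucose phosphates, 61.8 and 934. The glycogen synthase CG6904, Glys in the reference, had 16.1 and 113, the glycogen phosphorylase GlyP 58.9 and 449, and the trehalase Treh 30.2 and 210.5, with 86.8 to 111 in the other adult libraries. The trehalose transporter Tret1-1 had 186 and 745. The list's median was between -1.72 and -2.63 in the other pairs. The largest single difference, that of the glucosidase tobi, was -6.10 here and -1.99 to -3.33 in the other pairs, with 644 in this adult library and 38.3 to 140.1 in the other adult libraries.

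**Figure D3:**
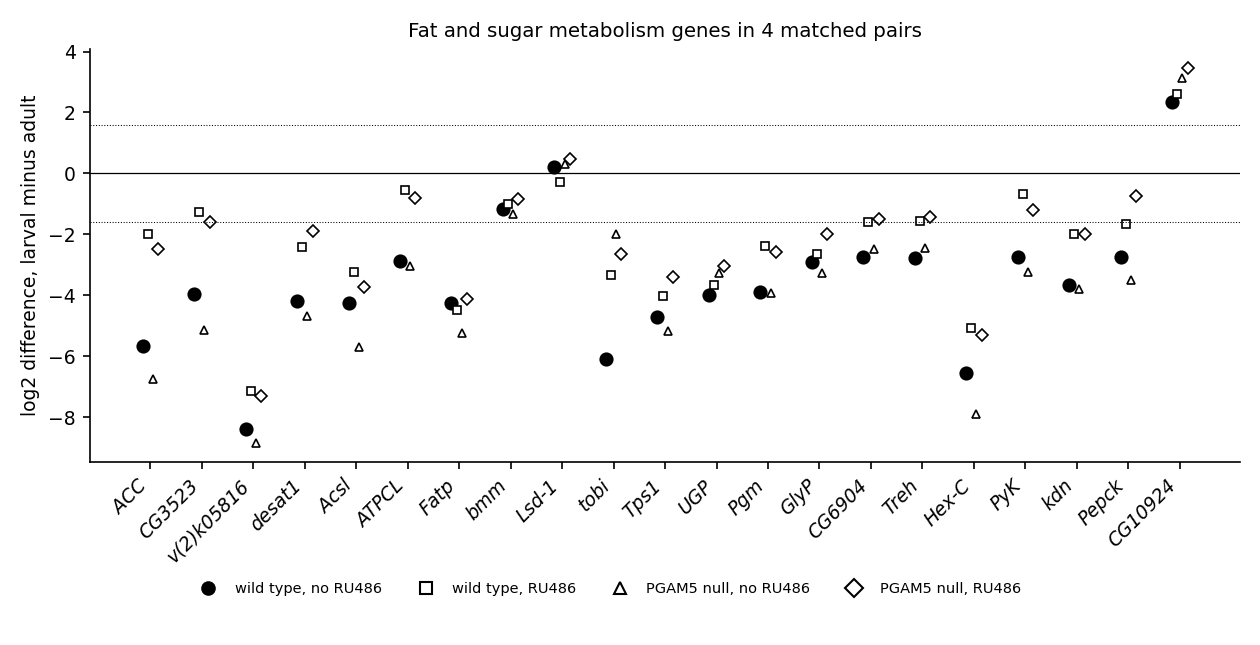
Log2 difference, larval minus adult, of 21 genes of fat and sugar metabolism in the 4 matched pairs, with filled circles for wild type without RU486 and dotted lines at 3-fold in either direction. Nearly all points lie below 0, with Lsd-1 near 0 and CG10924 above it.

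Genes of central carbon metabolism differed in the same direction by less. Of 13 glycolytic members 6 were higher in adults and 0 in larvae, with a median of -1.50, or -0.96 under median-ratio scaling. Only 1 was higher in adults in all 4 pairs. The median was -0.44 in wild type with RU486, -1.62 in PGAM5 null without it and -0.68 in PGAM5 null with it. The hexokinase of the fat body, Hex-C, had 2.62 in larvae against 339 in adults, and was the only glycolytic gene past 10-fold. The pyruvate kinase PyK had 72.5 against 487, the phosphofructokinase Pfk 19.6 against 65.5, and the lactate dehydrogenase ImpL3 14.7 against 93.6, with 40.6 to 46.0 in the other adult libraries. All 19 TCA cycle genes were lower in larvae, 9 of them by 3-fold or more and 4 of them by 3-fold or more in all 4 pairs. Their median was -1.49 in this pair, -0.79 in wild type with RU486, -1.87 in PGAM5 null without it and -0.83 in PGAM5 null with it. The citrate synthase kdn had 28.3 against 368, the oxoglutarate dehydrogenase subunit Nc73EF 48.1 against 325, and the aconitase Acon 72.0 against 417.

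The 2 phosphoenolpyruvate carboxykinases, which open gluconeogenesis, differed in opposite directions. Pepck (Pepck1) had 314 in larvae and 2096 in adults, with a ratio of 0.150 (0.145 to 0.155). Its paralog CG10924 (Pepck2) had 204 and 39.7, and it was higher in larvae in all 4 pairs, with log2 differences of 2.33 to 3.46. Amino acid enzymes were split as well. CG6188, the glycine N-methyltransferase Gnmt, had 621 in larvae and 50.1 in adults, and Oat, the ornithine aminotransferase, 779 and 86.7. Both were higher in larvae by over 3-fold in all 4 pairs. The tyrosine-degrading enzymes CG11796 (Hpd) and hgo were on the adult side, at 0.891 and 0 in larvae and at 63.8 and 23.4 in adults.

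Ribosomal protein, complex I and ATP synthase genes mostly differed by less than 3-fold. Of 86 cytosolic ribosomal protein members 14 were higher in adults and 4 in larvae, shares that do not exceed those of all members. The median was -1.26 over the list (-0.71 under median-ratio scaling), below the -0.53 of all genes at 10 FPKM or more in both libraries, and the list held 11.3% of the larval and 27.0% of the adult sum. RpL41, RpL39, RpLP1 and RpS25 were among the 12 most abundant adult genes, with 5422, 3678, 3169 and 2492 in larvae and 15890.1, 9955, 6583 and 5677 in adults. The elongation factor Ef1alpha48D went with them, at 4457 in larvae and 13168 in adults. RpL27, at 1338 in larvae and 4019 in adults, lay at the 3-fold limit.

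The 4 higher in larvae were paralogous copies. RpL37b had 66.5 in larvae, RpS19b 47.9, RpS10a 24.9 and RpL10Aa 18.5, and in adults RpS10a was at 0.453 and the others were listed at 0. The ubiquitous copy RpL10Ab had 878 and 3675. Of 16 nuclear ATP synthase members 4 were higher in adults and 4 in larvae, beside 21.3% and 20.4% of all members. The list's median was -1.39 (-0.84 under median-ratio scaling). The larval ones were CG7211, CG12027, CG5389 and CG31477, all named as like-copies of ATP synthase subunits in the reference, which had 28.1, 34.2, 21 and 22.5 in larvae and were listed at 0 in adults. Of 35 complex I members 5 were higher in adults and 4 in larvae, shares below those of all members. The list's median was -1.18 (-0.64 under median-ratio scaling). The larval ones were CG15434, the subunit ND-B8, and CG6485, CG11913 and CG2014, which the reference names as like-copies. These were at 10.4 to 15 in larvae and at 0 to 0.127 in adults. The autophagy gene Atg8b, a copy of Atg8a, was at 38.0 in larvae and listed at 0 in adults.

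Many other genes had the same pattern, near 0 in adults and low in larvae. Of the 1365 members higher in larvae, 1039 were under 1 rescaled FPKM in adults, and 943 of these were under 100 in larvae. Leaving them out left 326 members higher in larvae. Testis genes were in this range. Of the 23 genes in the testis and accessory gland list 21 were listed at 0 in adults, and the 10 that were members reached 10 FPKM in the larval library only, so that their direction was set by the choice of members. Among them were Mst87F at 173, Mst84Dc at 164, Mst84Db at 119, Mst84Dd at 113 and betaTub85D at 97.8 in larvae, each listed at 0 in adults. The Mst genes encode sperm proteins and betaTub85D is the tubulin of the male germ line. No accessory gland gene of the list was a member.

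The median of the 10 testis markers was 86.8 in this larval library, 11.8 in larvae of wild type with RU486, and 60.2 and 55.3 in PGAM5 null larvae without and with RU486. The 1004 members that were higher in larvae and under 1 in adults, outside the marker lists, had medians of 20.1, 3.38, 13.8 and 12.3 in the same order. These 1004 genes were chosen on the first of these libraries, so that a high first value is set by the choice. Whether testis tissue in the dissected larval fat body accounts for them was not tested.

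Genes that mark male cells lay on the larval side too. The dosage compensation RNAs roX1 and roX2, made in male cells, had 40.8 and 11.8 in larvae against 0.0590 and 0 in adults. In the other larval libraries they ran from 14.4 to 20.5 and from 3.94 to 15.1, and roX2 was listed at 0 in all 4 adult libraries. Sxl, the switch gene of sex determination, had 13.9 in larvae and 65.7 in adults, tra 4.28 and 19.7, and dsx 3.95 and 26.7. Stage and sex cannot be told apart for sex-biased genes.

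Salivary gland genes were abundant in the larval library. Glue genes, whose products fix the pupa to its support, included Sgs7 at 82109, Sgs8 at 21483, Sgs5 at 18967 and Sgs3 at 14088 in larvae, against 1.32, 1.05, 0 and 0 in adults. Of the 14 genes in the list 12 were higher in larvae, and they held 14.6% of the larval sum and 0.00383% of the adult sum. In the other larval libraries the share was 4.94% to 16.0%. The gland's transcription factor sage had 71.8 in larvae and 0.459 in adults, while fkh (5.89 and 16.9) and CrebA (16.7 and 18.1), which are used in other tissues too, were not higher in larvae. Eig71Ee, made in gland and blood cells, had 3708 in larvae and was listed at 0 in adults. Whether salivary gland came with the dissected tissue was not tested.

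Larval cuticle proteins were also present. Of 22 cuticle members 16 were higher in larvae and 3 in adults. Lcp1 had 3643 in larvae and was listed at 0 in adults, Lcp4 had 2527 against 0.552 and Cpr49Ac 3526 against 0.665. The other side held Cpr49Ab, which was listed at 0 in larvae and at 386 in adults. The synaptic gene Syt1 stood at 80.3 in larvae and 0.556 in adults, with 72.7 to 74.6 in the other larval libraries, but only 2 of the 15 neuronal markers were members.

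Midgut genes were present at both stages with different members. Of 37 members 12 were higher in larvae and 20 in adults, and the list's share was 1.68% in larvae and 1.08% in adults. The amylases Amy-p and Amy-d had 0.0587 and 0.0577 in larvae and 1099.8 and 603 in adults, and the protease Jon99Cii was listed at 0 in larvae and at 735 in adults. In the other adult libraries Amy-p ran from 6.37 to 10.2 and the maltase Mal-A1, at 1099.7 here, from 0.431 to 1.46. Among the 12 larval members were gammaTry (1201 against 43.3), deltaTry (1294 against 45.5), Jon25Bii (609 against 4.11) and the lysozyme LysS (738 against 0.613). The list's median was -2.59 in this pair (-2.21 under median-ratio scaling), 1.76 in wild type with RU486, 4.70 in PGAM5 null without RU486 and -0.16 in PGAM5 null with RU486, and it was 1.01 against the other 3 adult libraries.

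Amy-p and 3 more of the 12 largest adult differences belonged to genes that were far lower in the other adult libraries. CG14645 had 0.736 in larvae and 3891 here in adults, but 61.5 to 262 in the other adult libraries. CG34324 was listed at 0 in larvae and at 1411 in adults, against 13.5 to 68.9 in the other adult libraries, and CG12374 had 0.130 and 1031, against 3.72 to 11.5. The midgut list was likewise higher in this adult library, and its part in these values was not tested. CG18628, another of the 12, was listed at 0 in larvae and at 989 here, with 1637 in adults of wild type with RU486. It had 2.31 and 3.59 in PGAM5 null adults without and with RU486, and its log2 differences there were -0.75 and -2.20.

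**Figure D4:**
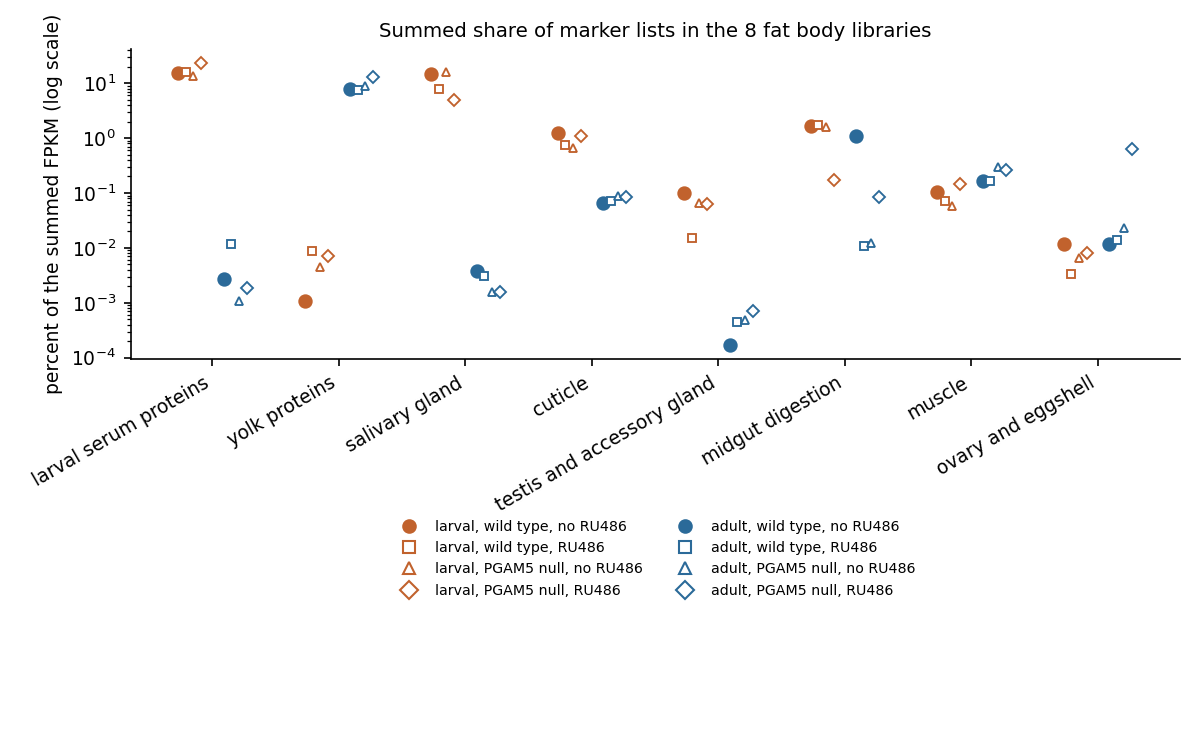
Percent of the summed FPKM (log scale) held by 8 gene lists in the 4 larval (left) and 4 adult (right) libraries, with filled circles for wild type without RU486. The midgut list is at 1.08% in this adult library and at most 0.0830% in the other adult libraries, and the salivary gland list holds 4.94% to 16.0% of the larval sums.

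Muscle and ovary added little. The muscle list held 0.103% of the larval and 0.167% of the adult sum, with 5 of 17 members higher in adults, beside 21.3% of all members. The 5 included the myosin heavy chain Mhc (10.9 and 71.4) and Mp20 (76.4 and 297). Of 26 ovary genes only 3 were members: Cp19 and osk, listed at 0 in larvae and at 17.9 and 15.9 in adults, and exu, which both germ lines use, at 97.9 and 6.29. The list's share was 0.0119% in larvae and 0.0118% in adults. Nplp2, on the hemocyte list and of rank 4 in adults, had 1876 in larvae and 17037 in adults, but 23837 and 19251 in the larvae given RU486, so that its direction turned in wild type with RU486 (0.39).

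Among the largest adult differences were genes of cuticular hydrocarbon synthesis, for which no list was made. Cyp4g1, the cytochrome P450 that makes hydrocarbons in oenocytes, had rank 3 in adults, with 4.68 in larvae and 22818 in adults and a ratio of 0.000205 (0.000155 to 0.000263). Fad2, the female desaturase of pheromone synthesis, was listed at 0 in all 4 larval libraries and at 4119 in adults, with 2861 to 5489 in the other adult libraries. eloF, a female elongase of the same pathway, was listed at 0 in larvae and at 842 in adults. Oenocytes lie against the adult abdominal fat body, and their part in these levels, or in those of the lipid synthesis genes above, was not tested.

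Detoxification enzymes were divided by family. Of 52 cytochrome P450 members 5 were higher in larvae and 22 in adults, with a median of -1.31, or -0.87 under median-ratio scaling and -0.68 against the other 3 adult libraries. Cyp12b2 had 1.87 in larvae and 76.6 in adults, Cyp4aa1 1.22 and 55.0, and Cyp4e1 was listed at 0 in larvae and at 29 in adults. Cyp4d1 was the largest exception, with 322 and 20.9.

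Glutathione S-transferases leaned less to one side. Of 29 members 8 were higher in larvae and 6 in adults, beside 20.4% and 21.3% of all members. The median of -0.41 became 0.11 under median-ratio scaling. GstE3 had 1114 in larvae and 83.2 in adults, GstD10 94.3 and 4.4, and GstS1 395 and 55.2. GstE9 had 23.8 and 315. The enzymes that make glutathione were on the adult side, Gclc with 7.85 and 91.3 and Gclm with 38.3 and 227, as was the thioredoxin reductase Trxr-1 with 43.7 and 229.8. Of 15 redox members 6 were higher in adults and 0 in larvae, beside 21.3% and 20.4% of all members. Uro, the urate oxidase, had 76.3 in larvae and 745 in adults, but its adult level ran from 4.78 to 559.8 in the other libraries and its difference turned to 3.60 in PGAM5 null with RU486.

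**Figure D5:**
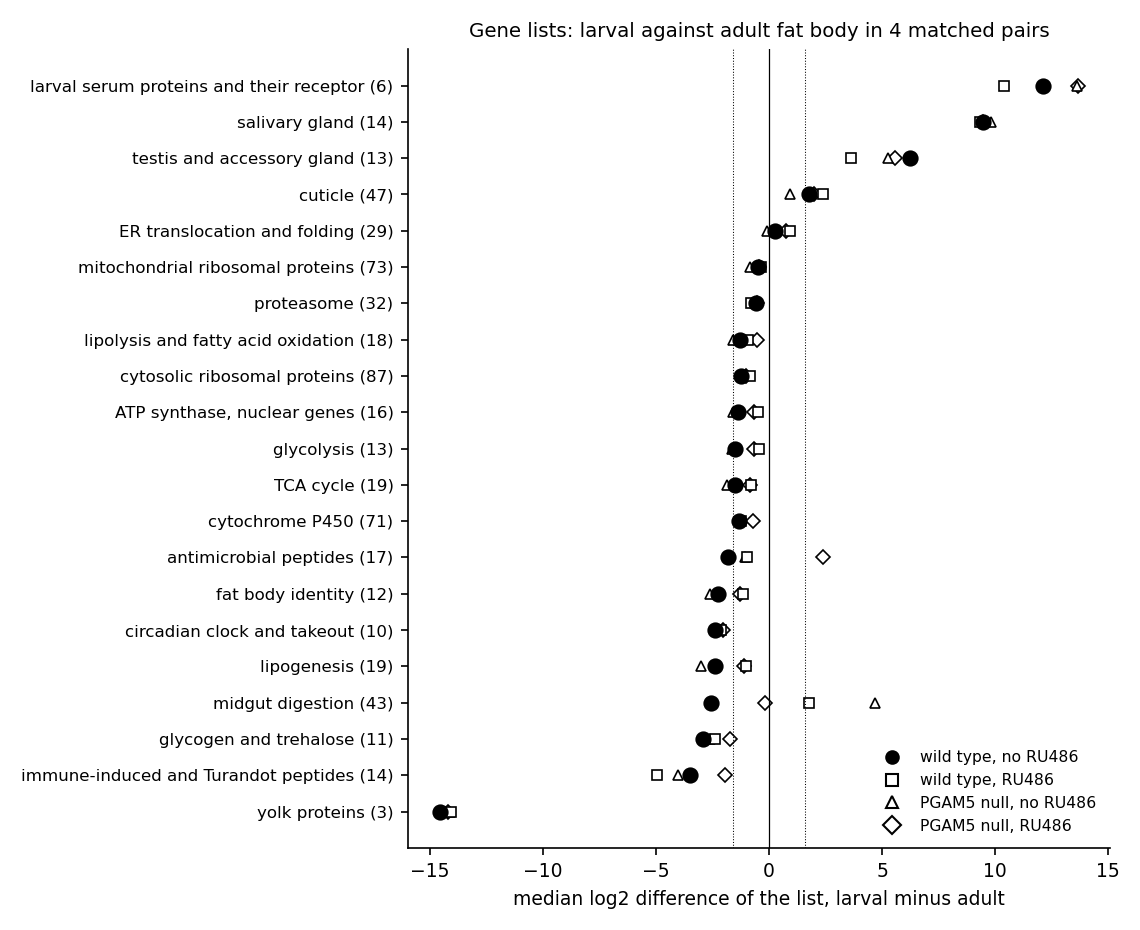
Median log2 difference, larval minus adult, of 21 gene lists in the 4 matched pairs, with the number of genes at 1 FPKM or more in brackets, filled circles for wild type without RU486 and dotted lines at 3-fold. Serum, salivary gland and testis lists lie on the larval side and the yolk list on the adult side in all 4 pairs, while the midgut and antimicrobial lists change side.

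Antimicrobial and immune-induced peptides were mostly higher in adults in this pair. Of 13 antimicrobial members 8 were higher in adults and 1 in larvae, with a median of -1.83 (-1.37 under median-ratio scaling). Only 2 were higher in adults in all 4 pairs, beside 8.34% of all members. For 3 of the 13 the larval values lay wholly below the adult values, a share below the 39.4% of all members. AttD had 75.7 in this adult library and 3.29 to 5.37 in the other adult libraries, and dro3 had 39.8 and 0. Drs, the antifungal Drosomycin, had 426 in larvae and 2296 in adults. Def, Defensin, had 0.770 and 317, with 26.9 to 635 in the other adult libraries. The Drosomycin-like gene dro4 was listed at 0 in all 4 larval libraries and at 389.7 in adults. Dpt, Diptericin, was the only one of the list higher in larvae, with 127 and 35.7, a ratio of 3.57 (2.66 to 4.80). The direction of this list did not hold in every pair. Its median was 2.39 in PGAM5 null with RU486, where Drs was at 1603 in larvae and 376 in adults, a difference of 2.09. In wild type with RU486 the difference for Drs was -6.09, with 38.1 in larvae and 2666 in adults, and in PGAM5 null without RU486 it was -0.90.

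The Bomanins, short immune peptides, were lower in larvae as a cluster. In the order of the reference annotation, 8 neighbouring genes on chromosome arm 2R (IM1, CG18107, CG15067, IM2, IM3, CG16836, CG15065 and CG15068) were all higher in adults, the longest such run on the adult side. CG15068 (BomS6) had 5.82 in larvae and 2719 in adults, IM3 (BomS3) 48.8 and 997, CG18107 (BomS4) 0 and 820.1, CG15067 (BomBc2) 0.518 and 783, and IM2 (BomS2) 20.2 and 703. CG16836 had 15.6 and 446, CG15065 0 and 271, and IM1 1.90 and 147. All 8 were lower in larvae in each of the 4 pairs, although the difference for IM1 shrank to -0.49 in PGAM5 null with RU486. The Daisho peptides IM4 and IM14 were listed at 0 in larvae and at 792 and 676 in adults.

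Stress peptides of the Turandot family took both sides. TotA had 2411 in larvae and 434 in adults, a ratio of 5.56 (5.18 to 5.97), while TotM and TotX were listed at 0 in all 4 larval libraries and at 119.6 and 60.3 in adults. Of 30 Toll and Imd pathway members 8 were higher in adults and 0 in larvae, beside 21.3% and 20.4% of all members. The list's median was -0.87 (-0.37 under median-ratio scaling). The receptor PGRP-LC had 12 in larvae and 102 in adults, and the NF-kappaB factors Dif and Rel had 10.4 and 49.5, and 24.5 and 111. The recognition protein PGRP-SD had 177 and 91.7. The clotting protein fon was higher in larvae, with 2098 and 518.

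Ecdysone and nuclear receptor genes were divided between the stages. Of 18 members 5 were higher in larvae and 3 in adults, shares near those of all members. By sign 6 were higher and 12 lower in larvae, and the median was -0.43, or 0.10 under median-ratio scaling. On the larval side br, the Broad transcription factor of the larval to pupal transition, had 53.8 in larvae and 0.597 in adults, ImpE2 40.8 and 0.127, Eip74EF 21.3 and 4.60, and the ecdysone exporter E23 15.1 and 2.97. shd, the hydroxylase that turns ecdysone into its active form, had 41.7 and 2.52, and 35 to 48.4 in the other larval libraries. The receptor EcR itself had 17.0 and 9.62. On the adult side were Cyp18a1, which inactivates ecdysone, with 0.163 in larvae and 21.1 in adults, and Eip93F, a factor of the pupal to adult step, with 0.195 and 18.0. ImpE2 and E23 varied among larvae, ImpE2 from 0.400 to 35.7 in the other libraries, and the difference for E23 was -0.50 in PGAM5 null with RU486.

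Of 6 juvenile hormone members 2 were higher in adults and 0 in larvae, beside 21.3% and 20.4% of all members. The list's median of -1.03 became -0.50 under median-ratio scaling. The hormone-induced factor Kr-h1 had 6.0 in larvae and 73.2 in adults, and the receptor gce 4.62 and 18.5. The other adult libraries gave Kr-h1 values up to 30.2, so that its adult level here was the highest of the 4.

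In insulin and TOR signalling 6 of 17 members were higher in adults and 0 in larvae, beside 21.3% and 20.4% of all members. The list's median was -1.21 (-0.84 under median-ratio scaling). The amino acid transporter mnd had 5.24 in larvae and 55.4 in adults, S6k, the kinase downstream of TOR, 12.6 and 66.9, and ImpL2, which binds insulin-like peptides, 33.9 and 194. The growth regulator dm, the fly Myc, had 3.22 and 71.5, with 27.8 to 41.1 in the other adult libraries.

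The genes at the centre of the study were measured in the same way. Pgam5, the mitochondrial phosphatase, had 17.4 in larvae and 15 in adults, and 0 to 0.996 in the 4 PGAM5 null libraries. The transcription factor foxo had 15.1 and 35.9, a difference of -1.19, and Thor, the translation inhibitor 4E-BP and a FoxO target, 684 and 831. puc, the phosphatase induced by JNK signalling, had 3.88 and 42.6. In all 4 pairs puc was lower in larvae, with differences of -1.73 to -3.16.

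Secretory machinery was a group in which larval levels were not lower. The list for translocation and folding in the endoplasmic reticulum had 29 members. Larval levels exceeded adult levels for 21 of them and did so at least 3-fold for 2, a share below the 20.4% of all members. The list's median was 0.25, or 0.80 under median-ratio scaling. The translocon subunits Sec61beta and Sec61gamma had 353 in larvae against 119 in adults, and 284 against 84.4. TRAM, which helps chains enter the membrane, had 173 against 54, and the signal peptidase subunit Spase25 178 against 66.8. In 12 of the 29 the 4 larval values lay wholly above the 4 adult values, beside 23.2% of all members. The list's median was -0.10 in PGAM5 null without RU486.

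Proteasome and mitochondrial ribosome genes showed no member past 3-fold. None of the 32 proteasome and none of the 72 mitochondrial ribosome members was called, and their medians of -0.56 and -0.51 became -0.01 and 0.02 under median-ratio scaling. Of 20 autophagy members 5 were higher in adults and 2 in larvae, an adult share near that of all members, and the median of -1.03 became -0.51 under median-ratio scaling. The autophagy cargo receptor ref(2)P had 78.6 in larvae and 488 in adults. Among lysosomal proteases Cp1 had 181 and 1159.6, and cathD 773 and 473.

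Of 19 heat shock members 3 were higher in larvae and 8 in adults, beside 20.4% and 21.3% of all members. The list's median was -0.71, or -0.17 under median-ratio scaling, and -2.76 in wild type with RU486. The small heat shock proteins Hsp23 and Hsp27 had 2251 and 551 in larvae against 72.3 and 15.2 in adults, and Hsp67Bc 50.4 against 0.956. Hsp70Aa, one of several near-identical copies whose reads cannot be assigned with certainty, had 2.52 and 47.9, Hsp83 312 and 1222, and the constitutive Hsc70-4 692 and 2539. In wild type with RU486 the differences for Hsp27 and Hsp67Bc were -1.26 and -0.50, and adult Hsp27 there was at 344.

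Clock genes were low in larvae. Of 8 members 7 were higher in adults and 0 in larvae, and the median was -2.38 (-1.95 under median-ratio scaling). All 8 had 4 larval values below their 4 adult values, beside 39.4% of all members. The photoreceptor cry had 1.78 in larvae and 146 in adults, a ratio of 0.0122 (0.00714 to 0.0192). Pdp1 had 1.73 and 61.7, Clk 1.71 and 13.6, cyc 7.48 and 32.5, and cwo 8.81 and 48.3. The negative regulator tim, whose RNA cycles over the day, had 0.963 and 19.7, with 11.7 to 76.5 in the other adult libraries. The hour of dissection is not given in the sources used here.

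At the limits of the definition, the members nearest to 10 FPKM from above were CG2082 (1.17 FPKM in adults) and Tsp33B (listed at 0 in adults), both at the limit in larvae, and the nearest genes below it were MRG15 (9.76 in adults) and CG15262 (listed at 0 in adults). At the 3-fold limit CG10026, at 76.3 and 24.5, was just called and vih, at 35.1 and 11.1, just not. On the adult side RpL7-like, at 27.2 and 83.5, was just called and Unc-115a, at 16.1 and 50.3, just not.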

How the data were processed

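The authors made TruSeq libraries, sequenced them on a MiSeq instrument and mapped reads to Drosophila genome release 5.2 with the Tuxedo suite. The submitters' processing notes name Bowtie, TopHat and Cufflinks, and versions are not given in the sources used here. The deposited values are FPKM per gene, normalised by the authors in 2 separate tables of 15603 genes. The adult table carries a larval heading inside, and it was taken as adult from its sheet name and from an identical copy headed as adult. No per-sample column was without a sample.

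Both tables were joined on the FlyBase identifier. Values were rescaled to a sum of 1000000, and a pseudocount of 1 was added before log2. Low-level genes then show smaller differences than their ratios. Members and all 49 gene lists (663 names and several name patterns, 11 names unmatched) were chosen with earlier results of these data known. Lists are described by counts at 3-fold and by the median over genes at 1 FPKM or more. Genes considered for naming were the 12 largest differences each way, the 12 most abundant genes of each stage, up to 4 of each list and the largest rank changes. Abundant genes within 1.25-fold, the genes at the limits, and Pgam5, foxo and Thor were considered too. Not all of these are described in the text. Other named genes were chosen after their values were seen.

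Depth was estimated from steps of low FPKM of 8091 genes with 1 transcript in a newer annotation (14927 identifiers matched), whose coordinates are not used. Exact binomial intervals at 95% for such genes over 400 nt cover counting error only. The steps were tested on simulated data. Alternatives varied scaling, pseudocount, filter, fold, members and libraries, and those using the other adult libraries, leaving out genes near 0 or leaving out short and noncoding genes were added after the data were seen. Thorax samples were not used here. The versions were matplotlib 3.10.9, scipy 1.17.1, pandas 2.3.3 and numpy 2.4.6 under Python 3.11.15.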

Additional observations from a re-analysis of the deposited data

Results flagged for a closer look

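The antimicrobial peptide gene Mtk, Metchnikowin, differed in opposite directions with and without RU486. Its log2 difference, larval minus adult, was -1.19 in wild type and -1.08 in PGAM5 null without RU486, and 1.13 in wild type and 2.39 in PGAM5 null with RU486. It was thus lower in larvae in both pairs without RU486 and higher in larvae in both pairs with it. In the pairs with RU486 the adults had been induced as larvae. The difference between the pairs was not tested, since each pair holds 1 library a stage. In the pair described here Mtk had 81.5 rescaled FPKM in larvae and 187 in adults.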

How the results depend on the processing

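The comparison had 1 library a stage and no replicate numbers, so that it had no replicate to block or leave out. A paired fit of stage over the 4 pairs, which differ in genotype and RU486, was not run. The 5 other scalings moved the log2 difference by a median of only 0.28 to 0.65, which is less than 3-fold. A difference past 3-fold therefore could not change sign under them, and none of the 49 list medians and 251 genes examined did. The medians of 8 lists between -0.16 and -0.60 crossed 0 under at least 1 scaling (mitochondrial ribosome, proteasome, vacuolar ATPase, ecdysone, thioester, metal transport, glutathione S-transferase and odorant-binding lists). The 1365 members higher in larvae became 721 with a pseudocount of 10, 2399 with a limit of 1 FPKM in either library, 107 with 10 FPKM in both, 362 with 50 FPKM in either, 561 without members listed at 0, 326 without members under 1 in adults, and 531 in wild type with RU486. The 1419 members higher in adults became 935 when rescaled without the most abundant genes, 857 with a pseudocount of 10, 521 with 10 FPKM in both, 676 with 50 FPKM in either, 2350 at 2-fold, 493 at 10-fold, and 882 in PGAM5 null with RU486. The 1752 close members became 3228 with 1 FPKM and 381 with 50 FPKM in either. Changed limits alter how many genes enter or count, and for the other pairs the cause was not tested. The share of the top 10 genes was 35.7% in larvae of wild type with RU486, and 22.3% and 24.6% in adults of PGAM5 null without and with RU486.

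Reversals came from other libraries, and the cause was not tested. In wild type with RU486 the log2 difference was -4.93 for Lsp1beta, 0.39 for Nplp2, 4.49 for Mal-A1, 0.82 for dro3, 0.93 for GstD8, -1.26 for Hsp27, -0.50 for Hsp67Bc, -0.40 for CG2082, -0.51 for cnn and 1.76 for the midgut median. In PGAM5 null without RU486 it was -0.01 for MtnD, 4.32 for Jon99Cii, 4.64 for Jon99Ciii, 3.24 for Mal-A1, 1.01 for GstD8 and 4.70 for the midgut median. In PGAM5 null with RU486 it was -1.53 for MtnD, -1.28 for MtnE, 3.60 for Uro, -0.50 for E23, 2.09 for Drs and 2.39 for the antimicrobial median. With the adult level from the other 3 adult libraries it was 3.26 for Mal-A1, 0.35 for GstD8 and 1.01 for the midgut median. Low values rest on few fragments, and the separate normalisation of the tables limits all of these comparisons.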

Other observations

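Genes called in one direction also lay side by side in the reference annotation. Runs of 4 or more neighbouring members numbered 13 with 62 genes on the larval side and 15 with 69 genes on the adult side. Among the larval runs were Lcp1 to Lcp4, cuticle genes on arm 2R, the Mst84D sperm genes on 3R, and the trypsins gammaTry and deltaTry with the genes between them on 2R. Adult runs included the elongase gene eloF with CG8534, CG16904, CG9459 and CG9458 on 3R, and Cyp4e1 with Mal-A1 to Mal-A4 on 2R, whose maltases were high mainly in this adult library.

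By chromosome arm, the share of members higher in larvae was 17.4% on X, 24.7% on 2L, 19.2% on 2R, 21.3% on 3L, 20.8% on 3R and 2.38% on chromosome 4, which holds 42 members. The share higher in adults was 24.8% on X, 20.8% on 2L, 22.8% on 2R, 18.5% on 3L, 21.1% on 3R and 7.14% on chromosome 4. These are counts over genes of 1 library a stage, with no test.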
